A study of Mus musculus with 8 samples.

Results

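Ultraconserved elements are stretches of the mammalian genome that are identical between human, mouse and rat. Many lie outside coding sequence, and they are known as developmental enhancers, as alternatively spliced exons of genes for RNA-binding proteins, and as parts of noncoding transcripts called transcribed ultraconserved regions. The members described here were chosen by name: the probes whose names begin with uc. and a number, which are custom probes of the array and not controls. There were 962 such probes among 59709 noncontrol probes, for 481 elements with 2 probes each, one named with a plus sign and one with a minus sign. The sign is taken here as the strand that the probe reads, and the files do not say relative to which annotation it was assigned. The files name the mm9 build and give these probes no position, so locations, overlap with exons or introns, and probe sequences are not given.

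Each array held RNA from the whole heart of 1 male mouse aged 8 to 12 weeks, sampled at baseline. Both groups carried loxP-flanked (floxed) alleles of Klf5, the gene of a Kruppel-like transcription factor. The 4 control mice had no Cre. In the 4 knockout mice, labelled aMHC-KLF5-/-, Cre was expressed in cardiomyocytes to delete the gene. The alpha myosin heavy chain promoter, for which aMHC stands, is active in cardiomyocytes, so the other cells of a whole heart are not targeted by it. The Klf5 transcript was not analysed here, and none of 35 markers of heart cell types could be matched to a probe by accession, so neither the deletion nor the tissue was checked.

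Signals are given as scaled log2 signal, where 0 is the 75th percentile of all noncontrol probes of the same array and a step of 1 is a doubling. A probe counted as detected on an array when the scanner software called its spot well above background. The floor of the signal differed between arrays, and a low or lower background of an array means a lower floor in what follows. This floor lay close to the noise estimate of the scanner software, which was 6.87 on knockout replicate 1 and 14.15 on control replicate 1. The level of the background itself was not compared. The lowest processed signals were 6.85, 3.17 and 5.28 on knockout replicates 1, 2 and 3, against 8.76 to 14.12 on the control arrays and 14.5 on knockout replicate 4. Every member was printed as 1 spot, and 2 members lost the value of 1 array through an outlier flag.

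A minority of the elements were detected in every heart. On all 8 arrays, 139 of the 962 probes were detected, which is 14.4% of them, against 40.8% of all noncontrol probes. These 139 probes came from 126 of the 481 elements. The members hold a probe for each strand of an element, while 51842 of the 59709 noncontrol probes come from the vendor's catalogue. The shares therefore compare unlike sets of probes. The plus probe alone was detected for 51 elements, the minus probe alone for 62, and both for 13, so 64 plus and 75 minus probes were seen in every heart. At the other end, 422 probes were detected on no array. The remaining 401 probes were detected on some arrays. Among them, 126 were detected in a single knockout heart and in no control, and 43 in a single control heart and in no knockout heart. The share of all noncontrol probes with these 2 patterns was not counted. The background was lower on knockout arrays 1, 2 and 3. There, 58.0%, 72.5% and 63.9% of all noncontrol probes were detected, against 46.6% to 52.7% on the control arrays. The counts of 126 and 43 are not read as a genotype difference. With detection on at least 1 array, 540 probes or 56.1% were seen, against 78.6% of all noncontrol probes.

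Probes of the array for long intergenic noncoding RNAs were detected more often, as a description that carries no test. Of probes for human-locus long intergenic noncoding RNAs 16.3% were detected on all 8 arrays, of mouse-locus ones 17.1%, and of probes for exons of long intergenic noncoding RNAs 29.2%.

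The number of probes detected per heart, of 962, differed between arrays with the background. By the scanner's own call, 191, 221, 243 and 230 probes were detected in control hearts 1 to 4, a mean of 221 ± 22.1 (SD, n = 4). In knockout hearts 1 to 4 the numbers were 284, 421, 341 and 201, a mean of 312 ± 92.8 (SD, n = 4). Knockout hearts 1, 2 and 3 lay above every control heart, and they are the arrays with the low background. When 1 limit was used for all arrays, a scaled log2 signal of -2.24, which is the highest detection limit among them, the numbers were 191, 185, 201 and 209 in controls and 205, 193, 196 and 199 in knockout hearts. The means were then 197 ± 10.6 and 198 ± 5.12 (SD, n = 4 each), and the groups overlapped.

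**Figure D1:**
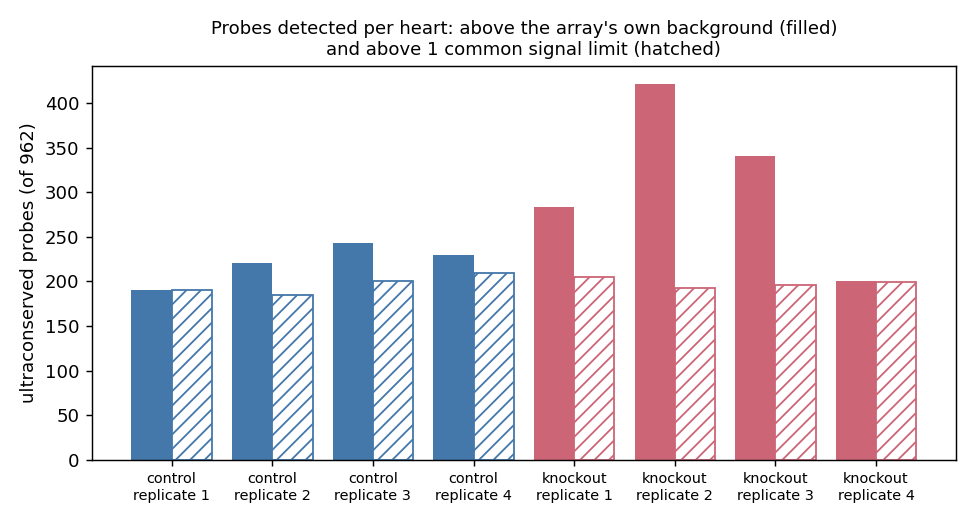
Number of ultraconserved probes, of 962, detected in each heart. Filled bars count spots well above the background of their own array and hatched bars count scaled log2 signals above the common limit of -2.24; knockout hearts 1, 2 and 3 stand out in the filled bars and lie between 193 and 205 in the hatched ones.

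The catalogue numbers its elements along the human chromosomes, so neighbours by number can be neighbours in the genome. Of the 126 detected elements, 65 had no detected neighbour by number, 17 runs held 2 elements, 5 held 3 and 3 held 4. The runs of 4 were uc.83 to uc.86, uc.417 to uc.420 and uc.471 to uc.474. Within the run from uc.417 to uc.420 the detected strand was plus for the first and minus for the other 3, and within that from uc.471 to uc.474 it alternated, beginning with plus.

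**Figure D2:**
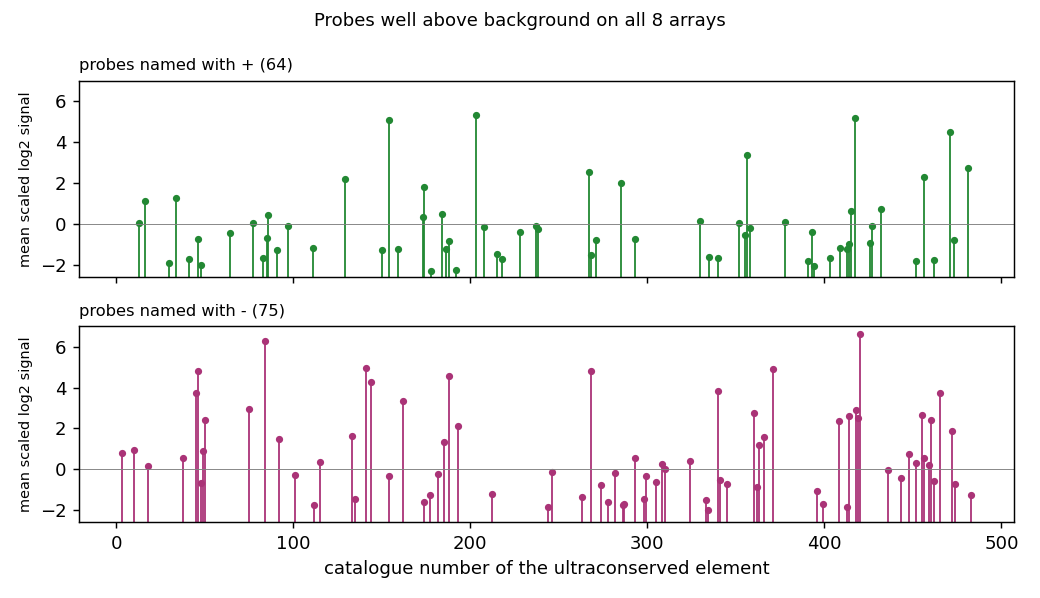
Mean scaled log2 signal over 8 arrays of the 139 probes detected in every heart, by the catalogue number of the element, with 64 plus probes above and 75 minus probes below. Detected elements are spread over the whole catalogue, and most reach the detected state on 1 strand only.

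Mean signals of the 139 probes ran from -2.32 to 6.62, with a median of -0.12 and quartiles of -1.22 and 1.60. All 24341 noncontrol probes detected on all arrays had a median of 0.64. The brightness of a probe depends on its sequence as well as on its transcript, so the signals of different probes give no order of abundance. The brightest spots of the members were those of uc.420-, with 6.62, 6.63, 6.65 and 6.66 in controls and 6.75, 6.65, 6.54 and 6.48 in knockout hearts. The next, uc.84-, had 6.29, 6.37, 6.01 and 6.37 in controls and 6.26, 6.26, 6.24 and 6.41 in knockout hearts. Both probes varied little from heart to heart, and the values of their groups overlapped. The others among the 10 with the highest signal were uc.203+, uc.417+, uc.154+, uc.141-, uc.371-, uc.268-, uc.46- and uc.188-, with mean signals from 4.56 to 5.33.

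In these 8 probes, too, control and knockout hearts overlapped. For uc.203+ the controls had 5.34, 5.54, 5.85 and 5.22 and the knockout hearts 5.03, 5.06, 5.65 and 4.95, with 1 bright heart among the knockouts. For uc.417+, from the same run of 4 elements as uc.420-, the controls had 5.14, 5.14, 5.35 and 5.34 and the knockout hearts 5.10, 4.95, 5.21 and 5.37. The signals of uc.141- lay between 4.82 and 5.16 in controls and between 4.78 and 5.05 in knockout hearts, and those of uc.188- between 4.38 and 4.82 and between 4.39 and 4.70. Those of uc.268- lay between 4.71 and 4.98 and between 4.64 and 4.94, a range of under 0.5 in each of the last 3 probes. At uc.371- the controls had 4.83, 4.78, 4.59 and 4.96 and the knockout hearts 4.68, 4.90, 5.29 and 5.22, with knockout hearts 3 and 4 above every control.

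The signal of a member was in general stable. The SD within groups of the 139 probes had a median of 0.21, against 0.20 for all probes detected on all arrays. The smallest was 0.08 at uc.154+, whose 8 values lay between 4.95 and 5.16. Spearman correlations between arrays over these probes were 0.938 to 0.977 within groups and 0.920 to 0.985 across groups. Probes share their arrays and are not replicates.

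A few members differed widely between hearts of the same genotype. An SD within groups above 0.5 was found for 11 of the 139 probes, or 7.91%, against 9.54% of all probes detected on all arrays. The widest was uc.184+, an element known to overlap CPEB4, the gene of a protein that controls polyadenylation. It had -0.53, 0.40, 2.33 and -0.36 in control hearts 1 to 4 and -0.43, 1.56, 2.11 and -1.28 in knockout hearts 1 to 4, an SD within groups of 1.47. The minus probe of uc.101 had -0.43, -0.36, 1.74 and -0.98 in controls and -1.27, -0.62, 1.19 and -1.48 in knockout hearts. In both probes replicate 3 was the brightest heart of its group. By contrast uc.174- was dimmest in replicate 3 of both groups, at -2.39 and -2.85 against -1.32 to -0.76 and -2.11 to -0.39. In uc.335+ a single heart stood out, knockout replicate 1 at 0.46, with the other 7 between -2.25 and -1.68.

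Of the 11 widely varying probes, 6 were brightest in replicate 3 of both groups, namely uc.184+, uc.101-, uc.46-, uc.455-, uc.64+ and uc.154-. This grouping was noticed in the values. Over all 139 probes 14 had this pattern, or 10.1%, against 10.2% of all probes detected on all arrays. In that comparison it is not particular to the ultraconserved elements. Its share among the widely varying probes of the whole array was not counted. Replicate 4 was the brightest of both groups in 20 of the 139 probes, or 14.4%, against 11.3% of all such probes. Some of the 14 are known, as background, to lie in genes for RNA-binding or splicing proteins, and the examples below were picked by gene. Other elements in such genes did not have the pattern. For uc.456-, in the splicing factor gene SRSF6, the knockout hearts had 0.33, 0.52, 0.09 and 0.69, with replicate 3 the dimmest. For uc.46-, in the gene of the nuclear RNA-binding protein HNRNPU, the signals were 5.08, 5.04, 5.77 and 4.37 in controls and 3.99, 4.91, 5.28 and 3.91 in knockout hearts. The minus probe of uc.419, in SRSF1, had 2.42, 2.63, 3.04 and 2.52 in controls and 2.44, 2.69, 2.83 and 1.64 in knockout hearts. The plus probe of the element in SRSF3, another splicing factor gene, is not one of the 14. It was detected on 2 arrays only, control replicate 3 at 0.49 and knockout replicate 3 at 0.55. The other 6 hearts lay between -4.97 and -4.40. Each array has a position code of 2 parts. The second part equals the replicate number and the first part differs between the groups. The heart and the second part of its position therefore cannot be told apart.

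**Figure D3:**
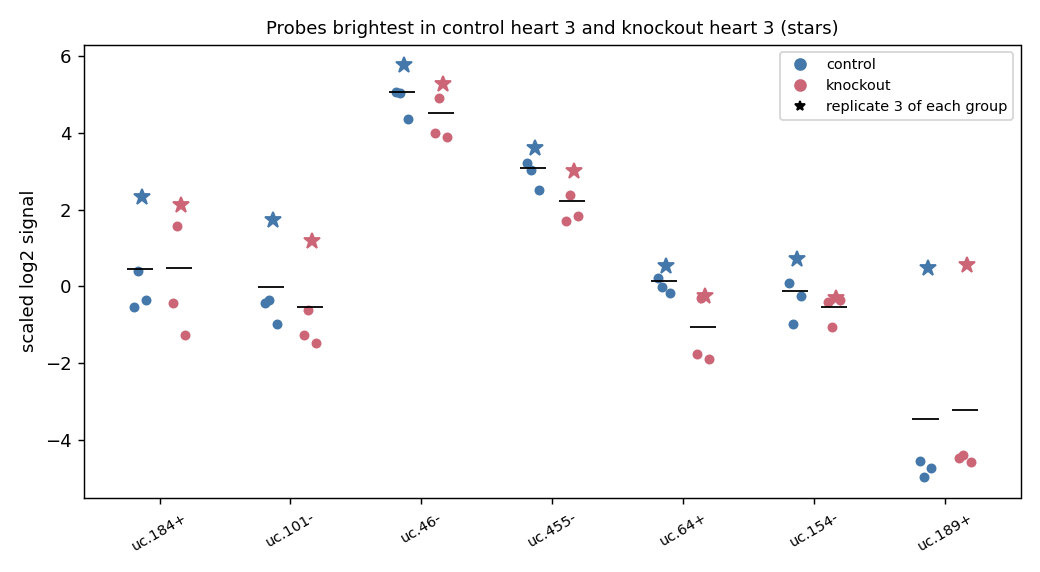
Scaled log2 signal in each heart of 6 probes brightest in replicate 3 of both groups and, at the right, of the plus probe of the element in SRSF3, with circles for replicates 1, 2 and 4, stars for replicate 3 and black lines for group means. The stars lie at the top of each group, and at the SRSF3 element the other hearts lie at -4.40 or lower.

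The comparison of knockout with control hearts asked whether deletion of Klf5 in cardiomyocytes went with a change in these transcripts. In bulk heart RNA a lower number of cells of a type and less RNA per cell cannot be told apart. No member passed in limma at an adjusted p under 0.05, among 183 members tested in a fit over 27878 probes, of which 0.14% were called. A member entered the test if all usable arrays of 1 genotype or more detected it, and the other 779 were not tested. Members that entered through 1 genotype alone had been selected by their higher group. The smallest adjusted p of a member was 0.191. At an unadjusted limma p under 0.05, 9 members were higher and 4 lower in knockout hearts, or 4.92% and 2.19%, against 5.37% and 2.69% of all tested probes. The balance of these depended on the scaling: 8 were higher and 8 lower with median centring, 7 and 8 with normexp, 8 and 7 with quantile normalization, and 14 and 4 with the percentile of the probes that all arrays detected.

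Among the 139 probes detected in every heart, where the filter does not depend on genotype, none was called, against 0.0493% of all such probes. At an unadjusted limma p under 0.05, 5 were higher and 3 lower. These are 3.60% and 2.16%, against 3.53% and 2.58% of all such probes. In 64 the difference was above 0 and in 75 below, with a median of -0.01, the same to 2 decimals as over all such probes. The groups did not overlap in 4 probes with higher values, uc.448-, uc.427+, uc.298- and uc.274-, and in 1 with lower values, uc.64+, where 2.68% and 1.7% of all such probes had groups apart. These shares lay near those of the whole array, as far as so few probes can show. For 78 of the 139 the 95% limma interval of the difference stayed within 0.5 of 0 on the log2 scale, and for 125 within 1.

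Of the probes with higher values in every knockout heart, uc.448- had 0.66, 0.58, 0.60 and 0.53 in controls and 0.83, 1.00, 0.82 and 1.07 in knockout hearts. The lowest knockout heart lay above the highest control heart. The group means were 0.59 ± 0.05 and 0.93 ± 0.12 (SD, n = 4 each), a difference of 0.34 with an SE of 0.09, or 1.27-fold, and a limma adjusted p of 0.402. For uc.427+ the values were -0.36, -0.30, -0.26 and -0.24 in controls and 0.02, -0.08, 0.00 and 0.30 in knockout hearts, a difference of 0.35 (limma adjusted p = 0.456). For uc.298- the values were -1.43, -1.54, -1.65 and -1.72 in controls and -1.28, -1.36, -1.31 and -1.42 in knockout hearts, a difference of 0.24. This difference was 0.12 with normexp background correction and 0.29 without control replicate 1. The groups overlapped in uc.341-, with a difference of 0.31, and in uc.48-, with 0.34, or 0.21 with normexp and 0.42 without control replicate 4. The normexp setting adds an offset of 50 to each signal, which by itself shrinks differences at dim probes. Smaller normexp differences at dim probes, here and below, are therefore partly built into that setting.

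Of the probes with lower values, uc.64+ had 0.22, 0.00, 0.53 and -0.18 in controls and -1.77, -0.29, -0.25 and -1.88 in knockout hearts. Knockout hearts 1 and 4 were far below the controls, while hearts 2 and 3 lay just under the lowest control. The group means were 0.14 ± 0.30 and -1.05 ± 0.90 (SD, n = 4 each), a difference of -1.19 with an SE of 0.41 and a limma adjusted p of 0.543. Over the alternatives run this difference lay between -1.46 and -0.85. The minus probe of uc.455, an element in RBM39, which encodes a splicing factor, had 3.22, 3.04, 3.60 and 2.51 in controls and 1.70, 2.37, 3.01 and 1.82 in knockout hearts. Knockout heart 3 reached into the range of the controls, and the difference was -0.87 with an SE of 0.33 and a limma adjusted p of 0.568. Over the alternatives run the difference at uc.455- lay between -1.13 and -0.69. For uc.436- the controls had 0.43, 0.47, 0.22 and -0.12 and the knockout hearts -0.09, -0.26, -0.30 and -0.52, a difference of -0.55 (limma adjusted p = 0.435).

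The other 5 members at an unadjusted p under 0.05 were not detected in every heart, and 3 of them, uc.258+, uc.477- and uc.25+, are named because of their values. Each entered the test only through the genotype in which it was higher, so their p-values and calls do not support a genotype difference. The smallest p of all members was at uc.258+. Its controls had -2.56, -2.18, -1.89 and -1.07, and its knockout hearts -0.49, -0.64, -0.50 and -0.11. It was detected on 3 control arrays and 4 knockout arrays, and every knockout heart was above every control. The means were -1.92 ± 0.63 and -0.43 ± 0.23 (SD, n = 4 each), a difference of 1.49 with an SE of 0.30, or 2.81-fold. The unadjusted p was 0.000981 and the limma adjusted p 0.191, and over the alternatives run the adjusted p lay between 0.0254 and 0.400. The lowest of these came without control replicate 4, the brightest control, where the difference was 1.77 and the probe was called. With normexp background correction the difference was 0.94.

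In the minus probe of uc.477 the controls had -4.57, -2.69, -2.51 and -2.38 and the knockout hearts -2.21, -1.17, -1.41 and -1.10. It was detected on 2 control arrays and 4 knockout arrays, with a difference of 1.56. The difference was 1.05 without control replicate 1 and 1.81 without knockout replicate 1. It was 0.72 with normexp and 0.97 when each value below its array's detection limit was set to that limit. For uc.25+, detected on 2 control and 4 knockout arrays, the difference was 1.08. It was 0.69 without control replicate 1, 1.27 without control replicate 3, 0.39 with normexp and 0.47 with values set to the limit. The dim plus probe of the catalogue element in OGT, the gene of a sugar transferase, had -3.54, -2.78, -2.75 and -2.63 in controls and -1.79, -2.28, -2.40 and -1.83 in knockout hearts. It was detected on 1 control and 4 knockout arrays, with a difference of 0.85. The difference was 0.34 with normexp, 0.44 with values set to the limit and 0.96 without knockout replicate 3. A probe at background in some controls has only an upper bound there, and the background was lower on 3 knockout arrays, so the sizes of these 3 differences are uncertain. In the other direction uc.77- had -1.47, -1.81, -1.56 and -2.10 in controls and -2.73, -2.13, -2.23 and -3.17 in knockout hearts. It was detected on 4 control and 3 knockout arrays, and the difference was -0.83, or -0.44 with normexp and -0.97 without knockout replicate 2.

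**Figure D4:**
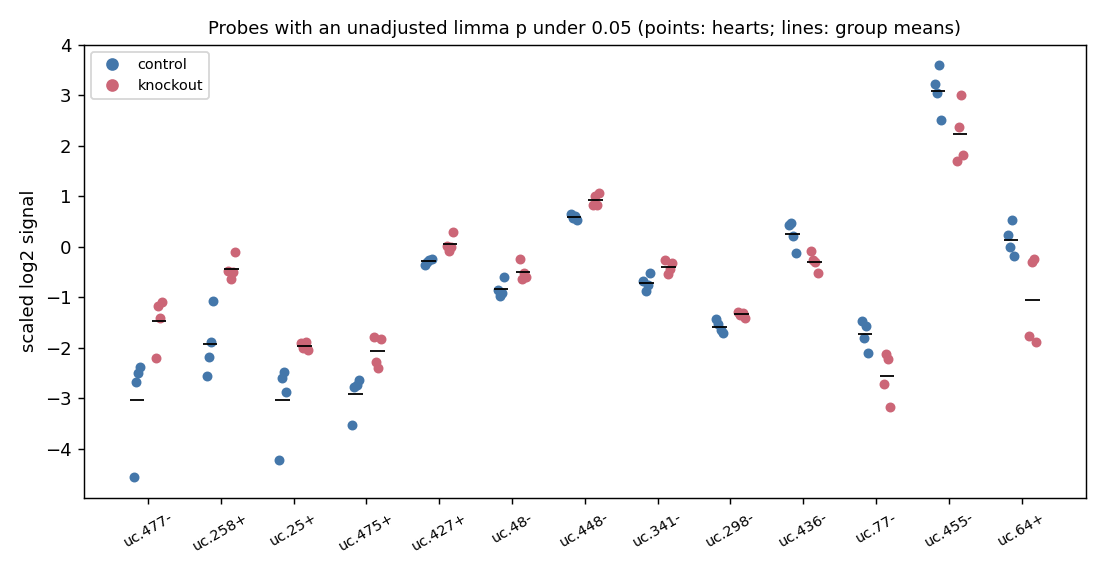
Scaled log2 signal in each heart of the 13 probes with an unadjusted limma p under 0.05, ordered from the largest positive to the largest negative difference, with 1 point per heart and lines for group means. The largest differences are at dim probes or, for uc.64+ and uc.455-, at probes whose knockout hearts spread widely; none passed the adjusted threshold.

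No member was detected in all 4 hearts of one genotype and in none of the other. In 35 members detection was limited to 3 knockout hearts, and no member was detected in 3 or 4 control hearts without any knockout heart. The share of all noncontrol probes with either pattern was not counted. Of all noncontrol probes, 58.0%, 72.5% and 63.9% were detected on knockout arrays 1, 2 and 3, where the background was lower. On the control arrays 46.6% to 52.7% were detected, and on knockout array 4 47.1%. These counts of members are therefore not read as a genotype difference. Of the 35, uc.170- was detected in knockout hearts 2, 3 and 4 at -1.92, -2.46 and -1.46, with knockout heart 1 at -5.46 and the controls between -5.09 and -4.57. It was not tested over all arrays. Without knockout replicate 1 it entered the test and was called, with a limma adjusted p of 0.00907. Another member, uc.107-, was detected in control hearts 1, 3 and 4 and in knockout hearts 1, 2 and 3. Its control hearts 1, 3 and 4 had 0.82, 0.47 and -0.30 while control heart 2 had -3.38 and the knockout hearts lay between -3.14 and -2.74. It too was tested and called only with 1 array left out, control replicate 2, with a limma adjusted p of 0.00759. Both calls arose when the heart that kept the probe out of the test was dropped, so they support no genotype difference, and both probes were named because of them.

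For the 13 elements detected on both strands in every heart, the 2 probes could be followed side by side. These were uc.46, uc.48, uc.154, uc.174, uc.188, uc.268, uc.293, uc.340, uc.413, uc.414, uc.452, uc.456 and uc.462. The differences of the 26 probes lay between -0.54 and 0.40, and 25 of the 26 95% limma intervals included 0, the exception being uc.48-. The strands differed in sign for 5 elements and shared it for 8. In uc.46 the plus probe had a difference of 0.25, or 0.14 both with normexp and without knockout replicate 4. Its minus probe had -0.54, or -0.31 without control replicate 3 and -0.34 without knockout replicate 4. In uc.414 the plus probe had 0.40, or 0.26 with normexp, and the minus probe -0.34, or -0.13 without control replicate 2 and without knockout replicate 3, and -0.57 without control replicate 3. Both probes of uc.48 had higher values in knockout hearts, with differences of 0.19 on the plus strand and 0.34 on the minus strand, which were 0.042 and 0.21 with normexp. For uc.154 the plus probe, steady in all hearts, had -0.04, and the minus probe, which ran from -1.06 to 0.71, had -0.42, or -0.15 without control replicate 3, -0.25 without knockout replicate 2 and -0.71 without control replicate 2. The plus probe of uc.293 had 0.24, or 0.030 without control replicate 1 and 0.14 with normexp, and the minus probe 0.20. The plus probe of uc.188 had -0.25, or -0.045 without knockout replicate 4 and -0.38 without knockout replicate 2, and the minus probe -0.02. The probes of uc.456, an element in SRSF6, had 0.03, a value that turned sign without single arrays, and -0.26, or -0.14 without control replicate 3 and -0.15 without knockout replicate 3. Without knockout replicate 3 the difference was larger at uc.46-, with -0.80, at uc.46+, with 0.38, and at uc.414+, with 0.53. The size of many of these small differences thus depended on single hearts, in both directions. Whether the strands of an element differed in their response to genotype was not tested.

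**Figure D5:**
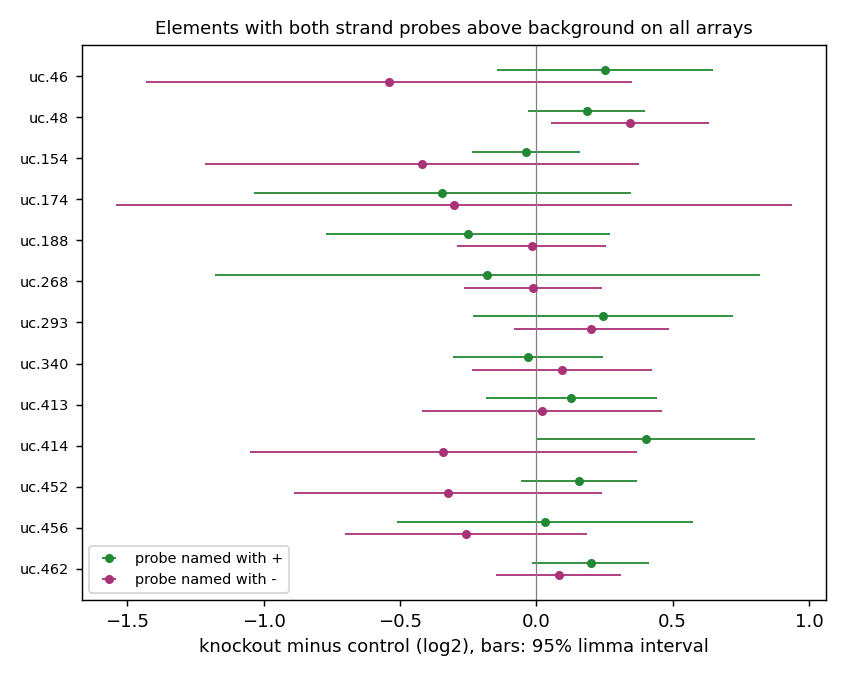
Difference between knockout and control hearts (log2) for the plus and minus probes of the 13 elements detected on both strands in every heart, with 95% limma intervals. Intervals of the 2 strands overlap at every element, and that of uc.48- alone leaves out 0.

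A list of 25 elements was drawn up from published work on single elements. Of these, 4 were detected in every heart with at least 1 probe, and 7, uc.63 among them, on no array with either probe. Of all 481 elements, 126 were detected in every heart with at least 1 probe and 104 on no array with either probe. The counts are therefore not read as a result about the listed elements. The 4 listed elements detected in every heart were uc.48, uc.77, uc.83 and an element studied in the intestinal lining. The plus probe of the last had -0.10, 0.29, 0.68 and 0.69 in controls and 0.40, 0.31, 0.24 and 0.33 in knockout hearts, with overlapping groups. For uc.77+ the values lay between -0.35 and 0.12 in controls and between -0.53 and 0.57 in knockout hearts, so that its groups overlapped while those of uc.77- did not. For uc.83+ they lay between -2.01 and -1.24 in controls and between -1.72 and -1.57 in knockout hearts.

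For the element studied in cardiac hypertrophy, the minus probe was detected on 4 control and 3 knockout arrays. Its values were -1.80, -1.94, -0.76 and -1.82 in controls and -2.67, -1.49, -1.16 and -2.51 in knockout hearts, a difference of -0.38 with an SE of 0.41 (limma adjusted p = 0.803). Without single hearts it ran from -0.65, without knockout replicate 3, to -0.11, without control replicate 3, and it was -0.14 without knockout replicate 1 and -0.20 without knockout replicate 4. Removal of the element in the DNA polymerase gene POLA1 from the mouse genome left viable animals. The plus probe of this element was detected on 4 control and 3 knockout arrays, with a difference of -0.44. Without one array the difference ran from -0.65 to -0.28, the latter without control replicate 4. The elements in the RNA-binding protein gene PCBP2 and in the splicing factor gene TRA2B were not detected on every array of either group.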

How the data were processed

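Intensities were read by the authors with Agilent Feature Extraction 11.0.1.1, per the file headers and the submitters' processing notes, after background correction. A value table of the authors, deposited on a log2 scale, holds 0 of the members and was not used further. From the log2 of each processed intensity the array's 75th percentile over 59709 noncontrol probes was subtracted. Control spots, spots with outlier flags and 1200 spots of negative-control sequences were left out. Probes with 3 or more usable arrays per group, if detected throughout 1 group or both, entered the comparison by limma 3.58.1 under R 4.3.3 (knockout minus control, Benjamini-Hochberg over 27878 probes, threshold 0.05). The labels do not say that mice came from separate litters or RNA batches, so p-values measure the spread between these 8 arrays, whose number limits precision. In simulated data of 27838 probes for this comparison, 200 probes taken at random were given a difference of 1 or 2 in either direction. Noise was normal, with the spread of each probe. The fit called 48% of differences of 1 and 81% of those of 2, with 9 false calls among 138. These shares depend on the number of probes changed and were not worked out for the members, so they are not their power. A detection limit is the lowest scaled signal well above background on an array.

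Named members are, by rule, up to 6 per direction by unadjusted p under 0.05 or detected in 1 group only, the 10 brightest, 6 elements detected on both strands, the 4 with the largest spread and 25 elements with published work. Of the last, uc.173 was studied in the intestinal lining and uc.323 in cardiac hypertrophy, uc.189 lies in SRSF3, uc.475 in OGT, uc.467 in POLA1, uc.338 in PCBP2 and uc.138 in TRA2B, and the 7 detected on no array were uc.63, uc.223, uc.248, uc.283, uc.388, uc.416 and uc.454. The first 7 of these are called in the text by gene or field of study. The members and lists were chosen with earlier results of these data known. Lists of 53 further genes and 35 cell type markers had 0 accession matches among the 112 symbols matched through RefSeq (GRCm38.p6). Statements on known genes at an element are background. Alternatives were normexp (offset 50, median spot signal), quantile normalization, other centring, signal filters, kept outlier flags, a replicate block, trended robust variances and omission of each array. Raising values to the detection limit and the common limit were added after seeing the data. All arrays shared 1 scan time, and the first part of the position code differed between the groups, so position and genotype cannot be told apart and no slide block was fitted.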

Additional observations from a re-analysis of the deposited data

Results flagged for a closer look

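The values of the named probes and the numbers of probes detected were examined in each genotype, 90 groups of 4 hearts in all. In 7 of these, 1 heart lay far from the other 3 for the range of its group. Chance gives about 1 in 20, but many of these probes were chosen for a wide spread or a small p, so that share is no measure for them. Control replicate 1 was low at the plus probe of the element in OGT, with -3.54 against -2.78 to -2.63 in the other controls, and at uc.477-, with -4.57 against -2.69 to -2.38. Control replicate 3 was high at the minus probe of the element studied in cardiac hypertrophy, with -0.76 against -1.94 to -1.80. Among knockout hearts, replicate 1 was high at uc.335+, with 0.46 against -1.81 to -1.68, and replicate 2 was low at uc.154-, with -1.06 against -0.42 to -0.30. Replicate 3 was high at uc.203+, with 5.65 against 4.95 to 5.06, and replicate 4 was high at uc.84-, with 6.41 against 6.24 to 6.26.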

How the results depend on the processing

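Without one array in turn, the number of called members was 0 to 1, against 0 over all arrays, and it was 0 under every other alternative. The 13 members at an unadjusted p under 0.05 became 75 without a signal filter, 21 with the replicate block, and 14 to 29 without one array, the most without knockout replicate 4, where more probes entered the test. The 9 with higher values became 14 with the percentile over probes detected on all arrays, 40 without a filter and 9 to 24 without one array. The 4 with lower values became 8 with normexp, 7 with quantile normalization, 8 with median centring, 35 without a filter, 9 with the replicate block and 2 to 7 without one array. Hearts of the same number were paired by nothing in the labels, and the block was therefore run as an alternative only. Correlations of their deviations from the group mean were 0.06, -0.05, 0.36 and 0.24 for numbers 1 to 4. Between control and knockout hearts of different number they ran from -0.29 to 0.09. Hearts numbered 3 and 4 thus deviated together more than hearts of different number, and the reason was not tested. Without a filter most members lie at the floor of their array, and the median difference of all members was -0.32.

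The 139 probes and 126 elements detected on all arrays became 540 and 377 when 1 array was enough, 260 and 217 with the scanner's call of positive and significant, 130 and 118 with the common limit, and 139 to 161 and 126 to 146 without one array. Of 32 named differences, 28 kept their sign under every alternative run. Those that turned were near 0: uc.456+ with -0.027 under median centring and -0.10 to 0.23 without one array, uc.154+ with 0.011 under normexp and -0.069 to 0.0026 without one array, uc.188- with 0.014 under normexp, 0.013 under quantile normalization, 0.016 with the percentile over detected probes and -0.079 to 0.067 without one array, and the plus probe of the element studied in the intestinal lining with -0.23 to 0.030 without one array. The authors' values could not be run, since their table holds none of these probes. Signal over background limits what can be said of the 422 probes detected on no array.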

Other observations

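Some elements were bright in single hearts and at background in most others. With a scaled log2 signal above -0.24 on at least 1 array, which is 2 above the common limit, and detection on at most 4 arrays, 24 members or 2.49% met both conditions, against 1.30% of all noncontrol probes. These conditions were set after the values were seen, and no test was run. Of the 24, 10 were detected on a single array, 5 in control hearts only, 7 in knockout hearts only and 12 in both groups. The minus probe of uc.473 reached 1.89 in knockout heart 1 and -0.67 in control heart 1, with the other 6 hearts between -6.03 and -2.58. The minus probe of uc.426 reached 1.64 in knockout heart 4 and -0.47 in control heart 2. For uc.74+ the bright hearts were control 3 at -0.62, control 4 at 0.39 and knockout 4 at 0.92. The plus probe of uc.264 was detected in control heart 3 at -0.88 and in knockout heart 3 at 0.10, the same hearts as the plus probe of the element in SRSF3. Each of these values is 1 spot, and the part of local spot defects was not tested.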
